A study of Mus musculus with 2 samples.

Results

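The 10 Notch genes described here are 4 receptors (Notch1, Notch2, Notch3 and Notch4), 3 ligands (Jag1, Jag2 and Dll4) and 3 target genes (Hes1, Hey1 and Heyl), found by symbol among the 31253 genes counted in the periosteum of mice. All 10 had counts in both libraries. Notch receptors are membrane proteins that bind Jagged and Delta-like ligands on neighbouring cells. Binding leads to cleavage of the receptor, and its intracellular part joins the DNA-binding protein Rbpj and turns on genes of the Hes and Hey families. In blood vessels the pathway is known for its part in the choice between artery and vein and in the coat of smooth muscle cells and pericytes, and in bone for holding back the differentiation of osteoblasts.

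Each of the 2 single-cell libraries came from 1 genotype, so that there are no replicates and no test between genotypes was possible. The control library was from mice with Prx1 Cre and the Ai9/+ reporter, and the Piezo1 fl/fl library from mice that carried the same Cre and reporter together with floxed Piezo1. All mice were 8 weeks old, the cells were digested from the surface of femurs and tibias, and cells sorted as Prx1 positive were thawed before capture on the BD Rhapsody system. How many animals gave each library is not in the labels. Prx1 Cre acts in the mesenchyme of the early limb, which does not give rise to endothelial or blood cells, and the study asked what Piezo1, a mechanically gated ion channel, does in the progenitors of the periosteum. The deposited counts are unique molecular identifiers (UMIs), tags that count each captured mRNA once near its 3′ end. The control library held 6118 barcodes with 28030299 UMIs (median 3633.5 per barcode), and the Piezo1 fl/fl library 7469 with 32337308 (median 3327). The libraries shared 50 barcode sequences, of which 26 were retained in both.

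After filters on genes, mitochondrial UMIs and doublets, 4418 control and 5084 Piezo1 fl/fl cells were clustered without the Notch genes, and the clusters were named from marker genes other than these. The names are rebuilt here, not the study's own, and each ends in "-like" for that reason. In the control and Piezo1 fl/fl libraries there were 174 and 142 endothelial-like cells, 294 and 363 pericyte-like cells (which include vascular smooth muscle), 799 and 390 osteoblast-lineage-like cells, 1634 and 1841 fibroblast-like cells, 55 and 124 lining-like cells with Prg4, and 397 and 522 blood-lineage-like cells. Cells led by markers of skeletal progenitors (the class called SSPC-1) and cells led by tendon markers were joined as 1 type, SSPC-1/tendon-like, with 1013 and 1445 cells, because their boundary moved with the settings. The thresholds for names and this joining were set after the clusters were seen. The 52 and 257 cells outside the 7 types (1.18% and 5.06%) were left out. A level below is the UMIs of a gene summed over the cells of a type, scaled to the total UMIs of that type as CPM (counts for every 1000000 UMIs), given with its 95% interval for counting error only. Levels are compared for 1 gene across types or libraries and not between genes.

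Prrx1, the gene whose regulatory sequence drives the Cre and also a naming marker of the SSPC-1 class, was at 1599 and 1106 CPM in SSPC-1/tendon-like cells of the control and Piezo1 fl/fl libraries. It was at 221 and 221 CPM in pericyte-like cells, 58.7 and 70.7 CPM in endothelial-like cells and 54.6 and 47.2 CPM in blood-lineage-like cells. The sort thus held cells with clear endothelial and macrophage markers and little Prrx1, and the account of the vessel wall rests on them. Pecam1, an adhesion protein of endothelium, was at 2264 and 2141 CPM in endothelial-like cells. Myh11, the myosin of smooth muscle, was at 5515 and 5276 CPM in pericyte-like cells. All 8 endothelial markers had UMIs in endothelial-like cells and all 8 pericyte markers in pericyte-like cells of both libraries. The pericyte markers Abcc9 and Kcnj8 were nevertheless higher in endothelial-like than in pericyte-like cells of the Piezo1 fl/fl library. Abcc9 stood there at 212 against 46.4 CPM. The other pericyte markers of that library, and all 8 in the control, were higher in pericyte-like cells. Between these types, the 8 endothelial markers summed to 35.5 and 10.4 CPM in pericyte-like cells, whereas the 8 pericyte markers summed to 2218 and 5269 CPM in endothelial-like cells. Genes of the immediate early response, which dissociation is known to raise, summed to 7969.6 and 11416 CPM in endothelial-like and 21474 and 26055 CPM in pericyte-like cells.

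Piezo1 itself was scarce. In osteoblast-lineage-like cells it was at 6.35 CPM (4.47 to 8.76) in the control library and 1.57 CPM (0.429 to 4.03) in the Piezo1 fl/fl one, a log2 ratio of -2.01 (-3.96 to -0.54). In SSPC-1/tendon-like cells it was at 3.06 and 1.13 CPM, a log2 ratio of -1.44 (-2.85 to -0.16). These 2 mesenchymal types had less Piezo1 in the library whose label gives the genotype Piezo1 fl/fl. In endothelial-like cells the levels were 27.8 and 17.2 CPM, with a log2 ratio of -0.69 (-1.97 to 0.50), and in fibroblast-like cells 3.87 and 2.40 CPM, with a log2 ratio of -0.69 (-1.46 to 0.07), so that no difference was detectable at this depth. The UMIs carry no position within the gene, so the deleted segment itself could not be examined.

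Of the 10 Notch genes, 9 had their highest level in a vascular type, in each library. Over all genes tested, endothelial-like cells were the highest type for 23.4% in the control library and 23.9% in the Piezo1 fl/fl one, and pericyte-like cells for 16.7% and 16.1%. In each library, 5 of the 10 (Notch1, Notch4, Jag2, Dll4 and Hey1) were highest in endothelial-like cells and at least 2-fold above every other type, where 5.18% of the genes tested were so in the control library and 5.2% in the Piezo1 fl/fl library. In pericyte-like cells the count was 4 (Notch3, Jag1, Hes1 and Heyl) in the control, against 4.93% of genes, and 3 in the Piezo1 fl/fl library, against 4.5%. Jag1 was the difference, being highest in pericyte-like cells of both libraries but by less than 2-fold in the second. Notch2 was the exception, with its highest level in blood-lineage-like cells and no 2-fold step. Each of the 10 genes kept its highest type in both libraries under all 11 alternative settings.

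**Figure D1:**
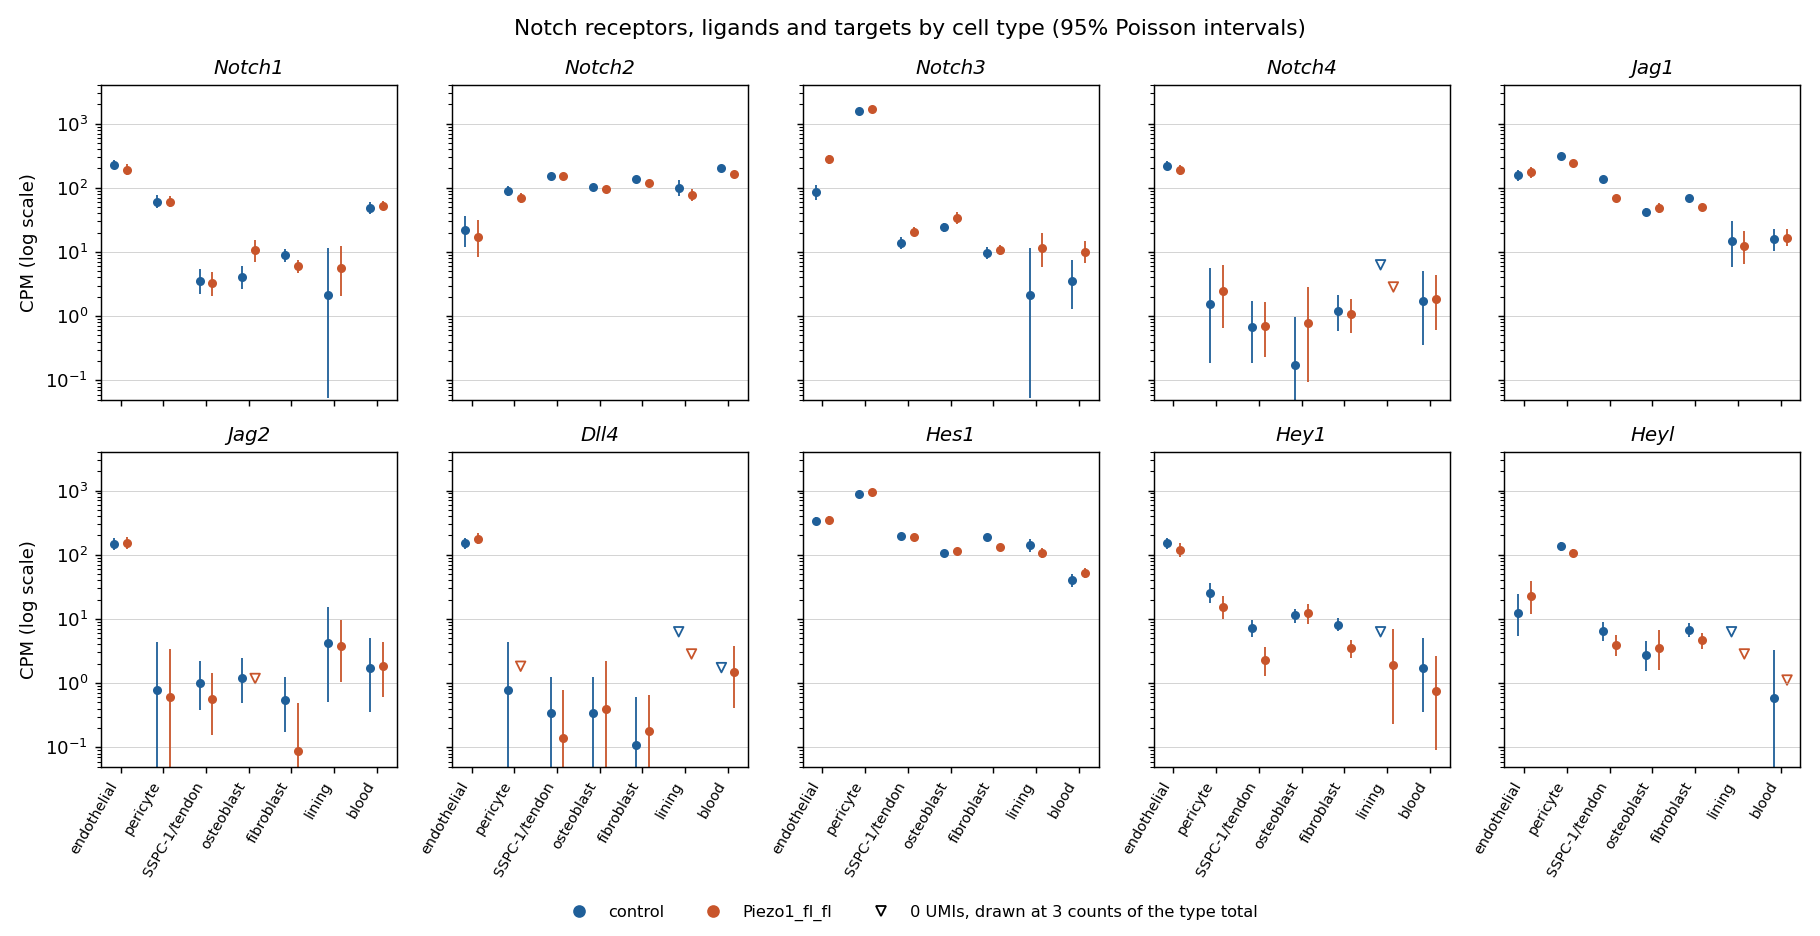
Level of each Notch gene (CPM, log axis) in the 7 cell types, in the control and the Piezo1 fl/fl library, with points for the level, bars for the 95% interval of counting error (some run off the bottom of the axis) and open triangles at 3 counts of the type total where no UMI was found. Notch4, Jag2 and Dll4 stand out in endothelial-like cells, Notch3 and Heyl in pericyte-like cells, and Notch2 is spread over all types but the endothelial-like.

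Among the receptors, Notch4 was the most restricted to endothelium, with 87.2% and 79.7% of its UMIs in the 7 types found in endothelial-like cells of the control and Piezo1 fl/fl libraries. It stood at 221 CPM (186 to 260.3) in endothelial-like cells of the control and 189.6 CPM (156 to 229) of the Piezo1 fl/fl library, and at 2.44 CPM or less in each of the other 6 types. The other 6 types could not be put in order. Endothelial-like cells were above the next type by a log2 ratio of 6.99 (5.41 to 9.28) in the control library, where blood-lineage-like cells came next, and 6.28 (4.88 to 8.18) in the Piezo1 fl/fl one, where pericyte-like cells did. Over these same types the ratios were at least 6.12 and 5.21 under the alternatives. With a mitochondrial limit of 10%, for which the cells were clustered and named again, pericyte-like cells of the control were closer, at 9.91 CPM from 4 UMIs against 228 CPM in endothelial-like cells. A Notch4 UMI was found in 43.7% (36.2 to 51.4) and 44.4% (36.0 to 52.9) of endothelial-like cells, against 0.680% (0.0825 to 2.44) and 1.10% (0.301 to 2.80) of pericyte-like cells. Whether the UMIs in pericyte-like cells came from these cells or from RNA of other cells was not tested. Median depths were 3022 and 3134 UMIs in endothelial-like and 3745 and 3948 UMIs in pericyte-like cells, so the higher share was in the shallower cells.

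Notch1, the receptor for Dll4 in sprouting vessels, was also highest in endothelial-like cells, at 230.3 CPM (195 to 270.3) and 191 CPM (157 to 230.4) in the control and Piezo1 fl/fl libraries. Unlike Notch4 it had a second tier, with 60.9 and 61.0 CPM in pericyte-like and 48.8 and 52.8 CPM in blood-lineage-like cells, which were not ordered in either library. Endothelial-like cells were above pericyte-like cells by a log2 ratio of 1.92 (1.52 to 2.33) and 1.65 (1.25 to 2.05), with 1.25 in the control under a mitochondrial limit of 10%. In the mesenchymal types Notch1 was low, at 8.81 and 5.96 CPM in fibroblast-like, 4.12 and 10.6 CPM in osteoblast-lineage-like and 3.57 and 3.25 CPM in SSPC-1/tendon-like cells.

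Notch3, the receptor of mural cells, marked nearly every pericyte-like cell. Its level there was 1543 CPM (1476 to 1612) in the control library and 1661 CPM (1599 to 1724) in the Piezo1 fl/fl one, and 288 of 294 cells, 98.0% (95.6 to 99.2), and 358 of 363, 98.6% (96.8 to 99.6), had a UMI. In the 247 and 307 cells with 2500 UMIs or more, thinned to that depth, the shares were 93.9% and 95.4%. Pericyte-like cells held 84.2% and 83.1% of the Notch3 UMIs in the 7 types. Endothelial-like cells came next at 85.0 and 279 CPM, below pericyte-like cells by 18.2-fold and 5.95-fold. When cells with 2 or more marker UMIs of another lineage were left out, endothelial-like cells held 1 Notch3 UMI in the control library and 0 in the Piezo1 fl/fl one, too few for a step. The step of the control, a log2 ratio of 4.18 (3.80 to 4.60), rose to 5.77 under a mitochondrial limit of 10%, from 20 UMIs in endothelial-like cells, and that of the Piezo1 fl/fl library, 2.57 (2.34 to 2.81), became 3.32 as a mean over cells. Osteoblast-lineage-like cells had 24.4 and 33.8 CPM and SSPC-1/tendon-like cells 13.8 and 20.8 CPM, ordered in both libraries.

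Notch2 was the receptor of the mesenchyme and of blood-lineage-like cells. It was at 200.5 CPM (179.9 to 223) and 163 CPM (148 to 179) in blood-lineage-like cells of the control and Piezo1 fl/fl libraries, at 154 and 152 CPM in SSPC-1/tendon-like and 137 and 117 CPM in fibroblast-like cells. The top of the order was set in the control, with a log2 ratio of 0.38 (0.20 to 0.56) for blood-lineage-like over SSPC-1/tendon-like cells, and not in the Piezo1 fl/fl library, with 0.09 (-0.07 to 0.26). Osteoblast-lineage-like, lining-like and pericyte-like cells followed at 101 and 94.5, 101 and 77.8 and 88.6 and 69.5 CPM, and no neighbours among these 3 were ordered in either library. Endothelial-like cells had the least Notch2, at 21.6 CPM (11.8 to 36.3) and 17.2 CPM (8.27 to 31.7). Notch2 was thus lowest in the type where Notch1 and Notch4 were highest, while blood-lineage-like cells had both the most Notch2 and the second tier of Notch1.

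Of the ligands, Dll4, a Delta-like ligand of arterial and sprouting endothelium, had 94.2% and 92.8% of its UMIs in endothelial-like cells. Endothelial-like cells had 149.9 CPM (122 to 183) and 178 CPM (145 to 215) in the control and Piezo1 fl/fl libraries, and every other type 0 to 4 UMIs. Dll4 in pericyte-like cells, at 1 UMI in the control library and 0 in the Piezo1 fl/fl one, was below the limit of 3 counts. A UMI was found in 56 of 174 endothelial-like cells, 32.2% (25.3 to 39.7), in the control library and 48 of 142, 33.8% (26.1 to 42.2), in the Piezo1 fl/fl library. With 1 UMI in control pericyte-like cells, the step of Dll4 over them is given only as a lower limit, a log2 ratio of 5.09 by its counting interval. When the cells were clustered again with a mitochondrial limit of 10%, the pericyte-like type of the control had 103 cells, not all of them among the 294. It held 7 Dll4 UMIs (17.3 CPM), and the step of Dll4 over it was smaller, at a log2 ratio of 3.11.

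Jag2 had the same shape. It stood at 147 CPM (119 to 179) in the control library and 152 CPM (122 to 187) in the Piezo1 fl/fl one in endothelial-like cells, and at 4.20 CPM or less elsewhere. Lining-like cells came next, with 2 and 4 Jag2 UMIs in the control and Piezo1 fl/fl libraries. The control count is below the limit of 3 counts, so its step is given only as a lower limit, a log2 ratio of 3.23 by its counting interval. In the Piezo1 fl/fl library the log2 ratio was 5.32 (3.91 to 7.23), and at least 5.09 under the 10 alternatives that gave a value. Each type outside endothelial-like cells held 0 to 7 Jag2 UMIs.

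Jag1, a Jagged ligand that smooth muscle and endothelium both use, was spread much wider. It was highest in pericyte-like cells, at 314 CPM (284 to 346) and 246 CPM (222 to 271) in the control and Piezo1 fl/fl libraries, then at 156 and 176 CPM in endothelial-like, 136 and 69.1 CPM in SSPC-1/tendon-like and 69.3 and 49.4 CPM in fibroblast-like cells. Endothelial-like and SSPC-1/tendon-like cells were not ordered in the control but were in the Piezo1 fl/fl library. Pericyte-like over endothelial-like cells gave a log2 ratio of 1.01 (0.69 to 1.34) in the control, just past 2-fold, and 0.48 (0.17 to 0.81) in the Piezo1 fl/fl library. The control value fell under 2-fold in 3 alternatives, to 0.86 with types taken from the marker UMIs of each cell, 0.98 with doublets kept and 0.99 without the deepest 5% of cells. Osteoblast-lineage-like cells had 42.2 and 48.4 CPM, blood-lineage-like cells 15.7 and 16.7 CPM and lining-like cells 14.7 and 12.3 CPM.

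The target genes split by cell type as the receptors did. Heyl followed Notch3, at 135 CPM (116 to 156) and 106 CPM (90.9 to 123) in pericyte-like cells of the control and Piezo1 fl/fl libraries. Fibroblast-like cells had 6.77 and 4.63 CPM, SSPC-1/tendon-like cells 6.46 and 3.95 CPM and osteoblast-lineage-like cells 2.75 and 3.54 CPM. Endothelial-like cells had 12.4 and 22.4 CPM, a step of 3.45 (2.44 to 4.68) and 2.24 (1.43 to 3.18) on the log2 scale. These rest on 8 and 13 UMIs in endothelial-like cells, of which 1 was left in each library without cells that held marker UMIs of another lineage, and 3 were found in the control under a mitochondrial limit of 10%, too few to give the step under these settings. Heyl UMIs and Notch3 UMIs met in the same cells, in 102 of the 103 pericyte-like cells with Heyl in the control library and 120 of 121 in the Piezo1 fl/fl library, where nearly all pericyte-like cells had Notch3.

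Hey1 followed the endothelial receptors, at 151 CPM (123 to 185) and 119 CPM (92.5 to 151) in endothelial-like cells and 25.4 and 15.2 CPM in pericyte-like cells. The log2 ratio between them was 2.57 (1.99 to 3.19) in the control library and 2.96 (2.28 to 3.69) in the Piezo1 fl/fl one. Hey1 UMIs were found in 20.7% and 25.4% of endothelial-like cells, and 1 control cell held 13 of the 98. Osteoblast-lineage-like cells had 11.3 and 12.2 CPM, not ordered against pericyte-like cells in the Piezo1 fl/fl library.

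Hes1, a target that other pathways also use, was found in every type. Pericyte-like cells had 882 CPM (831 to 934) and 940.5 CPM (894 to 989), endothelial-like cells 338 and 352 CPM, SSPC-1/tendon-like cells 196 and 186 CPM and fibroblast-like cells 192 and 134 CPM. Pericyte-like over endothelial-like cells gave a log2 ratio of 1.38 (1.17 to 1.60) in the control library and 1.42 (1.21 to 1.64) in the Piezo1 fl/fl one. SSPC-1/tendon-like and fibroblast-like cells were ordered only in the Piezo1 fl/fl library. The lowest Hes1 was in blood-lineage-like cells, at 40.1 and 51.7 CPM, where Notch2 was highest. Pericyte-like cells also had the highest sum of immediate early genes of the 7 types and a median mitochondrial share of 12.2% and 11.9%, against 5.30% and 5.65% in endothelial-like cells, and their part in the Hes1 level was not tested.

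Receptors and ligands were often caught in the same endothelial-like cell. Of the 174 control and 142 Piezo1 fl/fl endothelial-like cells, 130 and 101 had a UMI of a receptor, 104 and 88 of a ligand, and 87 and 69 of both. Dll4 UMIs met Notch1 or Notch4 UMIs in 50 of 56 cells with Dll4 in the control library and 39 of 48 in the Piezo1 fl/fl library. Among all endothelial-like cells, 74.7% and 71.1% had a UMI of any of the 4 receptors, a wider set, and the share with Notch1 or Notch4 is not given here. In pericyte-like cells 183 of 294 and 208 of 363 had both a receptor and a ligand UMI, where 288 and 358 cells had Notch3 and 184 and 207 had Jag1. Deeper cells hold UMIs of more genes, so these counts also follow depth.

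Endothelial-like cells were then parted by 6 arterial genes (Sox17, Gja4, Gja5, Sema3g, Bmx and Efnb2), since Dll4, Jag1 and Hey1 are known for their part in arteries. Cells with 2 or more UMIs of these genes numbered 94 of 174 in the control library and 83 of 142 in the Piezo1 fl/fl library. The gate is a range and not a type, as 33 and 28 cells had exactly 1 UMI, and the gated cells were deeper, with medians of 3331.5 against 2624.5 UMIs in the control library and 3563 against 2660 in the Piezo1 fl/fl library. Hey1 differed most in the control, at 236 against 19.8 CPM and a log2 ratio of 3.58 (2.30 to 5.23), with 155 against 53.4 CPM and 1.54 (0.59 to 2.62) in the Piezo1 fl/fl library. Jag1 was at 218 against 59.3 CPM, a log2 ratio of 1.88 (1.08 to 2.78), in the control library and 251 against 38.8 CPM, a log2 ratio of 2.69 (1.66 to 3.95), in the Piezo1 fl/fl library. Of the Jag1 UMIs of endothelial-like cells, 86 of 101 and 94 of 102 were in the arterial range. Jag2 was higher in the arterial range by a log2 ratio of 1.27 (0.54 to 2.06) and 1.00 (0.25 to 1.82).

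Dll4 was higher in the arterial range in the Piezo1 fl/fl library, by a log2 ratio of 1.28 (0.55 to 2.09), and in the control its ratio was 0.59 (-0.06 to 1.27), an interval that held 0. In the Piezo1 fl/fl library 1 cell held 21 of the 84 Dll4 UMIs of the range, and the mean over cells was 193 against 108 CPM. The receptors differed less. Notch1 had log2 ratios of 0.76 (0.22 to 1.31) and 0.26 (-0.34 to 0.88), and Notch4 0.58 (0.05 to 1.13) and -0.17 (-0.74 to 0.43), so that neither was higher in the arterial range of both libraries. Hes1 had intervals that held 0 in both. Notch3 was also higher in the arterial range, by a log2 ratio of 2.39 (1.16 to 3.90) and 2.78 (1.94 to 3.77), and so was the sum of pericyte markers, at 3097 against 847 CPM in the control library and 7564 against 1102 CPM in the Piezo1 fl/fl library. The median cell of the arterial range had 0 pericyte marker UMIs in the control library and 1 in the Piezo1 fl/fl one. Jag1, highest in pericyte-like cells, was compared between endothelial-like cells with 2 or more pericyte marker UMIs and the others. Its log2 ratio was 0.66 (0.06 to 1.25) in the control library and 0.51 (-0.08 to 1.12) in the Piezo1 fl/fl one. The part of the pericyte markers in the Notch3 and Jag1 ratios of the arterial range was not tested.

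Pericyte-like cells were parted by whether UMIs of smooth muscle genes (Myh11, Cnn1, Lmod1 and Mylk) outnumbered those of pericyte genes (Rgs5, Kcnj8, Abcc9, Higd1b and Vtn). Smooth muscle genes led in 232 of 294 control and 304 of 363 Piezo1 fl/fl cells. These cells were deeper, with medians of 4235 against 3008 UMIs in the control library and 4151 against 2957 in the Piezo1 fl/fl library. Their pericyte markers summed to 28787 against 37998 CPM and 29411 against 38645 CPM. The part of depth and of these markers in the ratios below was not tested. Notch3 was lower in the smooth muscle range, at 1427 against 2145 CPM in the control library and 1554 against 2406 CPM in the Piezo1 fl/fl one, with log2 ratios of -0.59 (-0.74 to -0.43) and -0.63 (-0.77 to -0.49). Hes1 went the other way, with 1.06 (0.76 to 1.38) and 0.31 (0.07 to 0.56). Heyl was lower in the smooth muscle range of the control, with -0.97 (-1.46 to -0.46), while the Piezo1 fl/fl value was -0.09 (-0.73 to 0.61). Jag1 was alike in both ranges, with log2 ratios of -0.00 (-0.39 to 0.40) and -0.08 (-0.50 to 0.36). Within the mural cells Notch3 and Hes1 thus leaned to opposite ends.

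**Figure D2:**
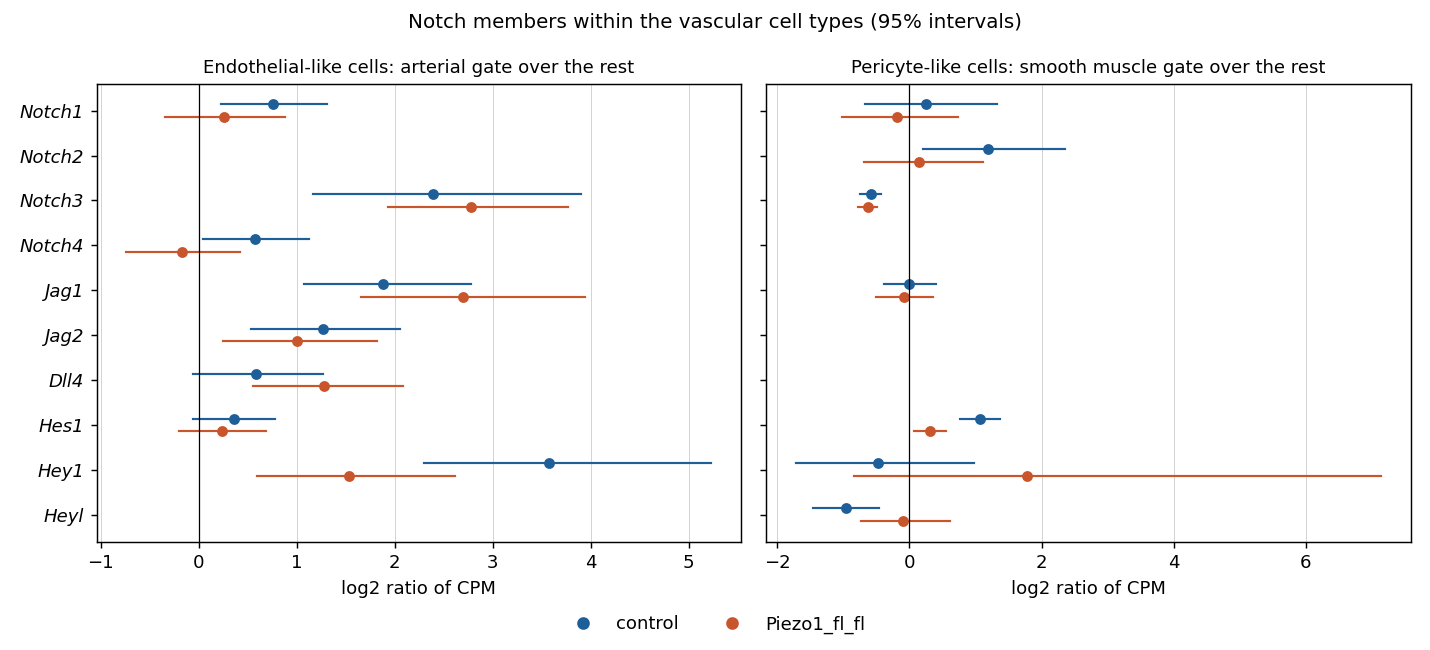
Log2 ratios of each Notch gene between ranges of cells, arterial over other endothelial-like cells and smooth muscle over other pericyte-like cells, for genes with at least 20 UMIs over both ranges, with points for each library and bars for the 95% interval of counting error. Hey1, Jag1, Jag2 and Notch3 lie above 0 for the arterial range in both libraries, and Notch3 lies below 0 and Hes1 above 0 for the smooth muscle range.

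None of the Notch genes differed by 2-fold between the libraries in the type where it was highest. Of the 70 pairs of a Notch gene and a type, 47 had at least 20 UMIs over both libraries, and 5 of these differed by 2-fold or more, 3 higher in the Piezo1 fl/fl library and 2 lower. The share of all genes past the same fold was 7.86% in endothelial-like, 4.54% in pericyte-like, 7.46% in SSPC-1/tendon-like, 5.84% in osteoblast-lineage-like, 6.27% in fibroblast-like, 12% in lining-like and 9.21% in blood-lineage-like cells. As a share, the 5 of 47 pairs lie above those of every type but lining-like, where none of the 3 pairs tested was past 2-fold. They are given as a description. Counting intervals held 0 for 31 pairs, lay above it for 6 and below it for 10. With 1 library per genotype, a difference of genotype and a difference of library cannot be told apart.

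**Figure D3:**
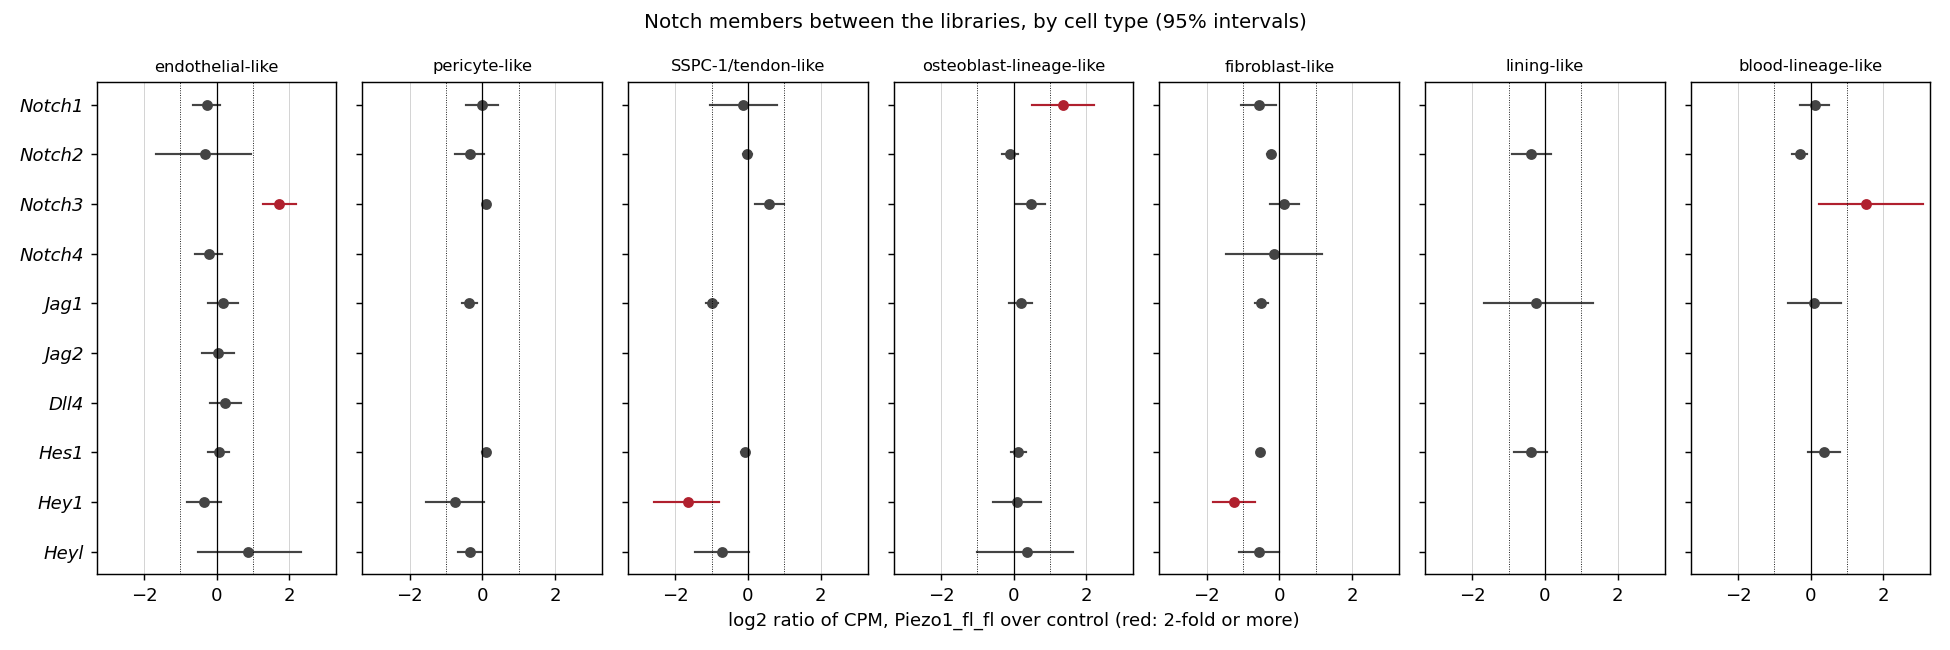
Log2 ratio of the Piezo1 fl/fl over the control library for each Notch gene in each cell type with at least 20 UMIs over both libraries, with bars for the 95% interval of counting error and lines at 2-fold. Hey1 in SSPC-1/tendon-like and fibroblast-like cells lies below the lower line, and Notch3 in endothelial-like and blood-lineage-like cells and Notch1 in osteoblast-lineage-like cells lie above the upper.

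Hey1 was lower by 2-fold or more in SSPC-1/tendon-like and fibroblast-like cells of the Piezo1 fl/fl library, while Hes1 and Heyl were not past 2-fold in either type as reported. Within the clusters led by tendon markers, however, Heyl went from 17.7 to 6.92 CPM, a log2 ratio of -1.35 (-2.40 to -0.34) from 22 and 15 UMIs. Those led by SSPC-1 markers had a Heyl ratio of -0.38 (-1.56 to 0.77). In SSPC-1/tendon-like cells Hey1 went from 7.14 CPM (5.15 to 9.65) to 2.26 CPM (1.29 to 3.67), a log2 ratio of -1.66 (-2.59 to -0.80) from 42 and 16 UMIs. It stayed past 2-fold in all 11 alternatives, between -2.63 and -1.38. In fibroblast-like cells it went from 8.17 to 3.47 CPM, a log2 ratio of -1.23 (-1.83 to -0.66). That value came under 2-fold with 500 to 6000 genes allowed per cell (-0.92), with cells that held marker UMIs of another lineage left out (-0.45) and with the pathway genes kept for clustering (-0.96). The fibroblast-like type was not made of the same clusters in both libraries. In the control it had clusters of 848 and 786 cells. The first was led by Col2a1, with a mean log2 ratio of 4.59 for fibroblast and 3.86 for chondrocyte markers. Gdf10 and C7 were among the leading genes of the second. In the Piezo1 fl/fl library it had clusters of 907, 603 and 331 cells. Of these the last was led by Cfd and scored higher for adipocyte than for fibroblast markers, while 230 cells led by Gdf10 took no name and were left out. Hey1 was at 3.25 and 13.7 CPM in the control clusters, at 6.61 and 1.65 CPM and with 0 UMIs in the 3 Piezo1 fl/fl ones, and at 5.95 CPM in the cells left out, and the part of this mix in its ratio was not tested. The SSPC-1/tendon-like cells differed as well, with SSPC-1 markers at 10368 and 7201 CPM in sum, fibroblast markers at 964 and 1774 CPM and median depths of 5061 and 4063 UMIs. Elsewhere Hey1 had a log2 ratio of -0.74 (-1.55 to 0.06) in pericyte-like cells, with -1.92 from 19 UMIs under a mitochondrial limit of 10%, of -0.35 (-0.81 to 0.11) in endothelial-like cells and of 0.11 (-0.56 to 0.74) in osteoblast-lineage-like cells.

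Jag1 in both of these types and Hes1, Notch1 and Notch2 in fibroblast-like cells were also lower, by less than 2-fold. Jag1 in SSPC-1/tendon-like cells went from 136 CPM (127 to 146) to 69.1 CPM (63.1 to 75.5), a log2 ratio of -0.98 (-1.15 to -0.82), and 5 of 11 alternatives put it past 2-fold, down to -1.18 at a clustering resolution of 0.8. The clusters led by SSPC-1 markers, with 802 and 1045 cells, had Jag1 at 165 and 90.8 CPM and a log2 ratio of -0.86 (-1.03 to -0.69). Clusters led by tendon markers, with 211 and 400 cells, had 30.5 and 19.8 CPM. Their log2 ratio was -0.62 (-1.29 to 0.05), an interval that held 0. Tendon-led cells, which had less Jag1, made up more of the joined type in the Piezo1 fl/fl library. The part of this mix in the Jag1 ratio was not tested. The shifts of SSPC-1 and fibroblast markers and of depth given for Hey1 apply to Jag1 in this type too, and their part in either ratio was not tested. In fibroblast-like cells Jag1 had a log2 ratio of -0.49 (-0.66 to -0.32) and Hes1 -0.52 (-0.62 to -0.42). Notch1 had -0.56 (-1.05 to -0.08) there and Notch2 -0.22 (-0.33 to -0.11). In osteoblast-lineage-like cells the values were 0.20 (-0.13 to 0.51) for Jag1 and 0.13 (-0.08 to 0.33) for Hes1, and the direction was not settled. For Jag1 5 of 11 alternatives lay outside the interval, from -0.38 without cells that held marker UMIs of another lineage to 0.69 with a mitochondrial limit of 10%, and for Hes1 1 did, the first of these, at -0.32.

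Notch1 in osteoblast-lineage-like cells was higher in the Piezo1 fl/fl library, at 10.6 against 4.12 CPM, a log2 ratio of 1.37 (0.52 to 2.22) from 27 and 24 UMIs. It came under 2-fold in 3 alternatives, 0.67 with 500 to 6000 genes allowed, 0.68 without cells holding marker UMIs of another lineage and 0.91 with the pathway genes kept for clustering. The cells differed as well, since the control type held 60 cells of a cluster led by mature osteoblast markers and the Piezo1 fl/fl type no such cluster, while mature osteoblast markers summed to 9465 and 17317 CPM. Without the 60 cells, the other 739 control cells and the 390 Piezo1 fl/fl cells had Notch1 at 4.17 and 10.6 CPM, a log2 ratio of 1.35 (0.48 to 2.23). Whether the difference in maturity bears on the Notch1 value was not tested.

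Notch3 differed most outside pericyte-like cells. In endothelial-like cells it was at 85.0 CPM (64.0 to 111) in the control library and 279 CPM (238 to 326) in the Piezo1 fl/fl one, a log2 ratio of 1.72 (1.27 to 2.18) that reached 2.98 with a mitochondrial limit of 10%, while in pericyte-like cells the ratio was 0.11 (0.02 to 0.19). The Notch3 UMIs came from 14 of 174 and 25 of 142 cells. All 8 pericyte markers were higher in endothelial-like cells of the Piezo1 fl/fl library and none was at 0, with Rgs5 the most abundant at 1536 and 3258 CPM and Acta2 at 396 and 1165 CPM. Their sum, 2218 and 5269 CPM in the control and Piezo1 fl/fl libraries, was higher in the same library as Notch3. Endothelial-like cells with fewer than 2 pericyte marker UMIs, 128 in the control library and 90 in the Piezo1 fl/fl one, held 1 and 0 Notch3 UMIs in all. The 46 and 52 cells with 2 or more held 54 and 162 Notch3 UMIs, or 247 and 536 CPM. The Notch3 of the endothelial-like type therefore sat in cells that also had pericyte RNA, in both libraries. By less than 2-fold, Notch3 was also higher in SSPC-1/tendon-like cells, with 0.59 (0.19 to 1.00), and osteoblast-lineage-like cells, with 0.47 (0.07 to 0.87). Clusters led by SSPC-1 markers had 0.75 (0.34 to 1.18) and those led by tendon markers 0.32 (-1.18 to 2.00). Fibroblast-like cells had 0.14 (-0.27 to 0.55). The part of the mix of clusters in these ratios was not tested. Notch3 in blood-lineage-like cells, at 3.49 and 10.0 CPM from 6 and 27 UMIs, had a log2 ratio of 1.53 (0.22 to 3.09), which fell to 0.40 with types from the marker UMIs of each cell, 0.41 with doublets kept and 0.82 with 500 to 6000 genes allowed. The pericyte markers summed to 140 and 174 CPM in these cells. Acta2 (33.7 and 66.2 CPM), Myh11 (4.07 and 10.0 CPM), Cspg4 and Tagln were higher in the Piezo1 fl/fl library. Rgs5 (51.1 and 21.9 CPM), Kcnj8, Abcc9 and Higd1b were lower, and the part of these markers in the Notch3 ratio was not tested. The Piezo1 fl/fl type also held 88 cells of a cluster led by neutrophil genes (Ngp, S100a8 and S100a9), for which the control had no cluster. The clusters named by macrophage markers, 397 and 434 cells, had Notch3 at 3.49 and 8.54 CPM and a log2 ratio of 1.29 (-0.09 to 2.90), an interval that held 0. These differed in mix too, as 143 of the 434 cells were in a cluster led by immunoglobulin and MHC class II genes (such as Igkc and H2-Eb1), with 3 Notch3 UMIs and 3.27 CPM, and the other 291 cells had 12.2 CPM.

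Over all endothelial-like cells, the intervals of the 5 endothelial genes between libraries held 0. Dll4 had a log2 ratio of 0.24 (-0.17 to 0.66), Jag2 0.05 (-0.39 to 0.48) and Notch4 -0.22 (-0.59 to 0.15) in endothelial-like cells. Notch1 there had -0.27 (-0.63 to 0.10), Hey1 the value given above and Hes1 0.06 (-0.23 to 0.34). Without cells that held marker UMIs of another lineage, Notch4 became 0.23, Hey1 0.22 and Jag2 0.50, each outside its interval, and the first and second changed sign. Within the arterial range Notch4, at -0.48 (-0.95 to -0.02), and Hey1, at -0.61 (-1.10 to -0.12), had lower values in the Piezo1 fl/fl library. Over endothelial-like cells of either range with fewer than 2 pericyte marker UMIs the values were not lower, at 0.31 (-0.16 to 0.77) for Notch4 and 0.22 (-0.39 to 0.81) for Hey1. In those with 2 or more, Notch4 was at 238 and 123 CPM and Hey1 at 188 and 86.1 CPM in the control and Piezo1 fl/fl libraries. For Hey1, 1 control cell held 13 of the 93 UMIs of the arterial range, and the means over cells were 231.7 and 201.4 CPM. In pericyte-like cells Jag1 was lower, with -0.35 (-0.55 to -0.15), and Heyl too, with -0.35 (-0.66 to -0.04), while Hes1 had 0.09 (-0.02 to 0.20). Within the smooth muscle range Heyl had -0.15 (-0.50 to 0.20) and Hes1 0.00 (-0.12 to 0.12). In the other pericyte-like cells Heyl had -1.02 (-1.81 to -0.28) and Hes1 0.75 (0.38 to 1.13). The median log2 ratio of the Notch genes tested was 0.05 in endothelial-like, -0.35 in pericyte-like, -0.14 in SSPC-1/tendon-like and -0.50 in fibroblast-like cells, where the medians of all genes were -0.01, -0.04, -0.07 and -0.06. In osteoblast-lineage-like, lining-like and blood-lineage-like cells the Notch medians were 0.20, -0.37 and 0.11 and those of all genes 0.00, 0.17 and -0.06. Fibroblast-like cells had the lowest Notch median, with 8 genes tested, in a type whose clusters differed between the libraries as described for Hey1.

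A list of 43 other genes of the pathway was read in the same way. In the control 38 had at least 20 UMIs, and 4 of these were highest in endothelial-like cells by 2-fold or more and 2 in pericyte-like cells, against 5.18% and 4.93% of all genes. In the Piezo1 fl/fl library the counts were 3 and 1 of 37, against 5.2% and 4.5%, and a minimum of 50 UMIs left 2 and 1 for endothelial-like cells of the 2 libraries. Hey2, a target related to Hey1 that acts in arteries and smooth muscle, was at 87.1 and 119 CPM in pericyte-like cells and 1.55 and 10.3 CPM in endothelial-like cells. Numb, an inhibitor of Notch receptors, was at 125 and 89.6 CPM in endothelial-like cells and 55.6 and 43.8 CPM in SSPC-1/tendon-like cells. Neurl1b, a ubiquitin ligase that acts on ligands, was at 70.1 and 40.3 CPM in pericyte-like and 24.7 and 22.4 CPM in endothelial-like cells, past 2-fold in the control only. The other genes behind the endothelial count were Dll1, Mfng and, in the control, Dtx1, which have fewer than 100 UMIs in a library and were named after their values were seen.

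Rbpj, the DNA-binding partner of all the receptors, was highest in blood-lineage-like cells at 263 and 183 CPM and was at 44.8 and 31.0 CPM in endothelial-like cells. Of the 10 listed genes of the machinery that cleaves receptors, which are proteases and subunits of the gamma-secretase complex, 9 had no 2-fold step from the highest type to the next in either library, and Aph1c, for such a subunit, was highest in blood-lineage-like cells by 3.23-fold and 4.31-fold. Of all genes tested, 7.45% and 8.79% were highest in blood-lineage-like cells by 2-fold or more. For each other type this share was 1.57% to 5.18% in the control and 1.46% to 5.2% in the Piezo1 fl/fl library. Adam10 was at 298 and 198 CPM in endothelial-like cells and 57.0 and 45.1 CPM in pericyte-like cells. Lfng, a glycosyltransferase that changes which ligands a receptor prefers, was at 94.3 and 126 CPM in endothelial-like, 95.3 and 93.4 CPM in blood-lineage-like and 3.08 and 1.83 CPM in pericyte-like cells.

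Between libraries, 8 of 208 pairs of a listed gene and a type were past 2-fold, a smaller share than that of all genes in any of the 7 types (4.54% to 12%). Of these pairs 6 were lower Dlk1 or Dner, and they are given as a description. Dlk1, a ligand-like protein of progenitors, went in pericyte-like cells from 31.6 to 2.44 CPM, a log2 ratio of -3.70 (-5.64 to -2.23). In SSPC-1/tendon-like cells it went from 40.0 to 19.8 CPM, a log2 ratio of -1.02 (-1.33 to -0.71), and in fibroblast-like cells from 14.3 to 6.76 CPM, a log2 ratio of -1.08 (-1.51 to -0.66). Dner, named after its values were seen, went in osteoblast-lineage-like cells from 45.5 to 16.9 CPM, a log2 ratio of -1.43 (-1.93 to -0.96), and was lower in SSPC-1/tendon-like and fibroblast-like cells too. With a minimum of 50 UMIs 3 pairs were left, Dlk1 in SSPC-1/tendon-like and fibroblast-like and Dner in osteoblast-lineage-like cells. The other 2 pairs, Hes6 in pericyte-like and Dtx4 in lining-like cells, had intervals that held 0.

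The genes most like each Notch gene were read over the 14 points of 7 types in 2 libraries, among 10393 genes. They were picked for their likeness over these types, so they share the split of the Notch genes by the way they were chosen. The measure was Pearson's r of log2 CPM with 5 added, a description over points that share their library and depth. For Dll4 they were Vwf (r = 0.999), Gata2 (r = 0.998) and Gimap4 (r = 0.998), for Notch4 Vwf (r = 0.997), Rasip1 (r = 0.996) and Emcn (r = 0.996), and Vwf, the von Willebrand factor of endothelium, led both. Jag2 was nearest to Sema3g (r = 0.993), Robo4 (r = 0.991) and Gata2 (r = 0.987), and Notch1 to Plxnd1 (r = 0.983), Pdgfb (r = 0.979) and Cbfa2t3 (r = 0.973). Hey1 was nearest to Dysf (r = 0.977), Abcg2 (r = 0.976) and Adgrf5 (r = 0.959). Sema3g was also among the arterial genes of the gate and Emcn among the endothelial markers.

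Notch3 was nearest to the contractile genes Myl9 (r = 0.987), Csrp1 (r = 0.985) and Acta2 (r = 0.983), of which Acta2 was a naming marker. Heyl was nearest to Synpo2 (r = 0.982), Mark1 (r = 0.981) and Ppp1r14a (r = 0.979), and Hes1 to Socs5 (r = 0.974), Rnf14 (r = 0.962) and Gjc1 (r = 0.961). Jag1 was nearest to Spry4 (r = 0.967), Pkia (r = 0.967) and Tbx3 (r = 0.949). Notch2 had the lowest values of the 10, with Dvl2 (r = 0.899), Arsb (r = 0.893) and Sumf1 (r = 0.889).

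The genes are scattered over the genome, with Notch1, Jag1 and Dll4 on chromosome 2 and Notch3 and Notch4 on chromosome 17 (GENCODE vM21, GRCm38; 31184 of 31253 identifiers matched). Dll4 (ENSMUSG00000027314) lay at chr2:119325784-119335962 on the plus strand, Notch4 (ENSMUSG00000015468) lay at chr17:34564268-34588503 on the plus strand and Notch3 (ENSMUSG00000038146) lay at chr17:32120820-32166852 on the minus strand. Notch1 overlaps 2 annotated genes on the other strand and Notch3, Notch4 and Dll4 1 each. Whether UMIs were counted by strand is not given in the sources used here.

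Promoters, the 250 bases before the start of a gene in RefSeq (GRCm38.p6), were read for 7 of the 10 genes, since the endothelial and pericyte genes were high together; Hes1, Hey1 and Heyl were not among them. RefSeq and GENCODE starts differ for some genes, and the stretches of Notch1 and Jag2 lie wholly, and those of Notch2, Notch4 and Jag1 partly, inside the gene as GENCODE draws it. The motif TGGGAA, the core of the sites that Rbpj binds, read on both strands, was in 0 of the 7 and in 21.6% of 32851 promoters of this length. The motif GGAA, the core of sites of the ETS factors, also read on both strands and held within TGGGAA, was in 5 of the 7 and in 93.4% of all, with a median of 3 matches. Notch4 had 5 matches, Notch1 4, Jag1 and Notch2 3 each and Dll4 2, while Jag2 and Notch3 had 0. The promoters of Dll4 (chr2:119325534-119325783, plus strand) and Notch4 (chr17:34564045-34564294, plus strand), highest in endothelial-like cells, and of Notch3 (chr17:32166891-32167140, minus strand), highest in pericyte-like cells, are printed 5′ to 3′ with GGAA or its reverse complement TTCC in capitals, as a description of the letters only.
Dll4: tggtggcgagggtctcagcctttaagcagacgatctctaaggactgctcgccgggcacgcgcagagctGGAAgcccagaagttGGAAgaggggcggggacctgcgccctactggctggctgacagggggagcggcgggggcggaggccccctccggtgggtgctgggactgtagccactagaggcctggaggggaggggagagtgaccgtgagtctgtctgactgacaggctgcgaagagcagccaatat
Notch4: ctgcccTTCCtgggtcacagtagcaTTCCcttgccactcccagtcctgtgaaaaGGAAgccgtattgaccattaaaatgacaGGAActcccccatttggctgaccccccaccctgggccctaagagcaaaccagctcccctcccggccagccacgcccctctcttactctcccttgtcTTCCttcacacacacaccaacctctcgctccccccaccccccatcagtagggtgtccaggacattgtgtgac
Notch3: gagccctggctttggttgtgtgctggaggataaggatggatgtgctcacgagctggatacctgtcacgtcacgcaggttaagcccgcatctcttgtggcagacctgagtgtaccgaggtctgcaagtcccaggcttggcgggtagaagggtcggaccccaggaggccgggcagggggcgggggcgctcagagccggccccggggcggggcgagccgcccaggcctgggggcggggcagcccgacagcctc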

How the data were processed

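The authors deposited, for each of the 2 libraries, a table of UMI counts per gene and cell barcode without normalization. The submitters' processing notes name fastp, UMI-tools, STAR and Seurat 4.0.3, and the genome build and annotation are not given in the sources used here. The members, marker genes, pathway list and gates were chosen with earlier results of these data known. Each library was processed alone. Filters retained cells that had 1000 to 5000 genes and a mitochondrial share below 25%. Doublet calls came from Scrublet in scanpy 1.11.5 (expected rate 0.05) among 5551 and 6784 barcodes with at least 500 genes, with 46 calls (0.829%) for the control and 67 (0.988%) for Piezo1 fl/fl, and these were removed. Seurat 5.3.0 in R 4.3.3 took genes found in at least 10 cells, normalized by LogNormalize (scale factor 10000) and chose 2000 variable features. From these the 10 Notch genes, the 43 pathway genes, the 11 immediate early genes and Piezo1 (65 in all) were left out. Genes of the gates and naming markers were not left out. Clustering used 20 of 30 principal components at resolution 0.4 (seed 0).

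To name a cluster, a class needed at least 3 detected markers and a mean log2 ratio of at least 2. Detected meant a UMI in at least 10% of its cells and a CPM of 2 or more times the median over other clusters. Among such classes less than 1 below the highest mean, the class with the largest share of its markers detected was taken. A cluster whose 10 leading genes held more markers of another type took no name. Types with under 50 cells in a library were left out, and so the 33 perineurial-like cells of the control. Intervals are exact at 95% (Poisson for levels, conditional for ratios, Clopper-Pearson for shares) from scipy 1.17.1 in Python 3.11.15, with a floor of 3 counts, and the functions were tested on simulated data. Figures were drawn with matplotlib 3.10.9. A gene was called at 2-fold or more with at least 20 UMIs. All 10 members were described, listed pathway genes were named at 100 UMIs or more in each library, and the genes most like a member were the 3 with the highest r. Alternatives were 500 to 6000 genes, a mitochondrial limit of 10%, resolutions of 0.2 and 0.8, types from the marker UMIs of each cell, doublets kept, the mean of each cell's CPM, a total without mitochondrial, ribosomal protein and hemoglobin genes, cells with 2 or more marker UMIs of another lineage left out, pathway genes kept among the variable features, the deepest 5% of cells left out, and a minimum of 50 UMIs for the pathway list.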

Additional observations from a re-analysis of the deposited data

How the results depend on the processing

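The highest type of each of the 10 Notch genes was the same in both libraries in 11 of 11 alternatives. Of the ratios of the highest type over the type that came next as reported, 203 values under the alternatives lay within the counting interval of the reported value and 13 outside it, and of the ratios between libraries 474 lay within and 36 outside. In 0 cases did a value past 2-fold change sign. The number of Notch gene and type pairs past 2-fold between libraries was 5 as reported and 2 to 7 under the alternatives. It was 7 at resolution 0.8 and 6 with a mitochondrial limit of 10% or without the deepest 5% of cells, each including the 5 reported. It was 4 with types from the marker UMIs of each cell or with doublets kept and 2 without cells that held 2 or more marker UMIs of another lineage, all of them among the 5. With 500 to 6000 genes per cell 2 of 3 pairs, and with pathway genes kept among the variable features 3 of 5, were among those reported. The other 3 alternatives gave the same 5. With a minimum of 50 UMIs, where fewer genes are tested, the pathway genes highest in endothelial-like cells by 2-fold or more numbered 2 in place of 4 in the control and 1 in place of 3 in the Piezo1 fl/fl library, and the pathway pairs past 2-fold between libraries 3 in place of 8. When cells with marker UMIs of another lineage were left out, 6 control and 23 Piezo1 fl/fl lining-like cells remained, and without the deepest 5% of cells 43 control ones, so these gave no value. Counts of 4 UMIs or fewer, as for Dll4 outside endothelial-like cells, and the small types (55 control lining-like cells) limit what differences could be detected.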

Other observations

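Hes1 was high in a cluster outside the 7 types, 33 control cells led by perineurial markers, at 907 CPM (771 to 1062), where Notch3 had 2 UMIs and Heyl 0. In the Piezo1 fl/fl library 230 cells led by Gdf10, which took no name, had Hes1 at 138 CPM (120.1 to 158) and Heyl at 17.2 CPM (11.2 to 25.2), above the 4.63 CPM of fibroblast-like cells. Another 27 cells led by Col2a1 had Hes1 at 308 CPM (243 to 386).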
